A study of Mus musculus with 72 samples.

Results

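The cytosolic glutathione transferases of the alpha, mu and pi classes were followed in the livers of mice given tertiary butyl alcohol (TBA), a branched alcohol, in their drinking water. The members were the 10 genes Gsta2, Gsta3, Gsta4 (alpha), Gstm1, Gstm2, Gstm3, Gstm4, Gstm6, Gstm7 (mu) and Gstp1 (pi). With earlier results of these data known, they were taken by symbol from the 21400 symbols of the probe table. They are read by 16 of its 30146 probes, of which 14 passed the filter on low counts, at least 1 for each gene. The animals were female B6C3F1 mice aged 9 to 11 weeks, housed singly. Groups of 9 received TBA at 10, 20 or 40 mg/mL, or water at 0 mg/mL, for 14 or 28 d, which gave 8 groups and 72 livers with 1 library each, all fixed in formalin and embedded in paraffin. RNA was read with TempO-Seq, in which a pair of oligonucleotides anneals side by side on each target RNA, is ligated and is counted by sequencing. The study's title asks about an anti-thyroid mode of action behind thyroid tumours, and the comparisons here are of each dose with the undosed animals of the same duration.

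Glutathione transferases join the tripeptide glutathione to reactive, electron-poor molecules, which can then be exported and excreted as mercapturates. The alpha class also reduces lipid hydroperoxides, and alpha, mu and pi enzymes together make up a large part of the soluble detoxifying capacity of rodent hepatocytes. Several of their genes are known targets of the oxidant-sensing factor NRF2 and of the xenobiotic receptors CAR and PXR.

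The mu genes lie side by side on chromosome 3 in the order Gstm7, Gstm6, Gstm3, Gstm2, Gstm1, Gstm4, with the non-member Gstm5 before them, whereas Gsta3 stands alone on chromosome 1, Gsta4 and Gsta2 lie on chromosome 9 and Gstp1 on chromosome 19 next to Gstp2. The RefSeq promoter windows of build GRCm38.p6, 250 bases before to 50 after a start, are shown for the 3 mu genes with a probe that passed a test and for the alpha and pi members of highest mean count, against which they are set below. Gstm1 and Gstm4 have 2 annotated starts each, of which 1 is shown; the other window of each held none of the motifs searched. Capitals mark every match, on either strand, to the antioxidant response element core TGACNNNGC, the AP-1 motif TGANTCA, the nuclear receptor motif AGGTCA or the TATA motif TATAAA.
Gstm1, chr3:108017769-108018068, minus strand: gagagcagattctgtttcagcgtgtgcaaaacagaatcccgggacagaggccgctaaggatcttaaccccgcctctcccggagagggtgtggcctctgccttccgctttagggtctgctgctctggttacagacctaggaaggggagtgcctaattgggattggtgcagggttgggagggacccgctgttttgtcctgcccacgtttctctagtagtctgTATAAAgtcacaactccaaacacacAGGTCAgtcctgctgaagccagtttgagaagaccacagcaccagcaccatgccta
Gstm4, chr3:108044810-108045109, minus strand: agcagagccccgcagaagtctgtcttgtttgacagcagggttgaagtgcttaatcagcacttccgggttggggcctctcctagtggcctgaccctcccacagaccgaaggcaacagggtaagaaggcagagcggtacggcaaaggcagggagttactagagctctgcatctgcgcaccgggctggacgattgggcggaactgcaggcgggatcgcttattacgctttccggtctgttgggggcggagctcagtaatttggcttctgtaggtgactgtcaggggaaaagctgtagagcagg
Gstm3, chr3:107969125-107969424, minus strand: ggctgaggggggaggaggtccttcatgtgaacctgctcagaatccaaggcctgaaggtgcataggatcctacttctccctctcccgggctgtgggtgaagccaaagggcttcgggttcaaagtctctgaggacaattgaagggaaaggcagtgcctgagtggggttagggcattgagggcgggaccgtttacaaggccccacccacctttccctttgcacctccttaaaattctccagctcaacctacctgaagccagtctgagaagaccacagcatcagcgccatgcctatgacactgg
Gsta3, chr1:21240335-21240634, plus strand: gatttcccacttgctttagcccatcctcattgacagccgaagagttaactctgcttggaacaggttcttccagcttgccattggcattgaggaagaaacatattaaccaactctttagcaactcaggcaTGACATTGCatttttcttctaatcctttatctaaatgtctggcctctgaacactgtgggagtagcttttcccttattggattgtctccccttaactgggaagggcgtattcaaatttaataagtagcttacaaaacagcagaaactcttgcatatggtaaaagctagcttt
Gstp1, chr19:4037863-4038162, minus strand: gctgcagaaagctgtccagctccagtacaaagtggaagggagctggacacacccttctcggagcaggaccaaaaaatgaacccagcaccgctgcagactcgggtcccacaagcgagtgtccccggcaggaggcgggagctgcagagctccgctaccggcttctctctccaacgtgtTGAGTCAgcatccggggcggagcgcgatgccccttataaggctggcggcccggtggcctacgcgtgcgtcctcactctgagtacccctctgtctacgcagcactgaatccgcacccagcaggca
The Gstm1 window held a TATAAA whose first base lay 30 bases before the start and an AGGTCA at 5 bases before it, while the Gstm4 and Gstm3 windows held none of the 4 motifs. The Gsta3 window held an antioxidant response element core at 121 bases before the start, and the Gstp1 window an AP-1 motif at 74 bases before it. Of all 32851 windows, 12.4% held the antioxidant response element core, 7.81% the AP-1 motif, 16.3% AGGTCA and 13.6% TATAAA. These matches describe the letters of the windows and say nothing of binding. Windows were found for 9 of the 10 genes.

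The members are alike in sequence within a class, which bears on what a probe can tell apart. On the longest open reading frames of GENCODE M21 transcripts, Gstm1 shared 89.5% of aligned bases with Gstm3, 86.0% with Gstm2 and 81.2% with Gstm4, but 65.0% with Gsta3 and 64.1% with Gstp1. The probe sequences were not used here. Of all 50-base stretches of a gene's transcripts, none in Gstm4, Gsta3 or Gsta4 occurred in a transcript of another gene, against 19.9% in Gstm1, 28.8% in Gstm3 and 51% in Gstp1, all of the last shared with Gstp2. Values of Gstp1, Gstm3 and Gstm1 could therefore include reads of near-identical copies, and Gstp1 cannot be separated from Gstp2 if its probes lie in the shared stretches.

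The 71 libraries kept held 7765545 to 12682075 counts each. A library with only 10796 counts (40 mg/mL, 14 d, replicate 5) was left out, so that group has 8 animals. Levels are counts per 1000000 (CPM) after scaling by TMM factors, which correct library size for shifts in composition. These factors ran from 0.978 to 1.58 in the animals given 40 mg/mL for 14 d and from 0.847 to 0.961 in their controls, 2 ranges that do not overlap. Of 8 hepatocyte markers 4 were lower at that dose, among them Serpina1a, Apoa1 and Ttr, and the list had a summed level of 8888 to 38585 CPM at 40 mg/mL and 37112 to 53031 CPM in controls. Of the markers tested, 6 of Kupffer cells, 3 of cholangiocytes, 4 of lymphocytes and 2 of red cells, none was called. Of 5 endothelial markers 1 was lower, and of 7 stellate markers 1. All these counts stand beside 2.84% of all features higher and 3.68% lower. With lists this short, 0 calls do not show that a cell type was unchanged. Kupffer cell markers summed to 47.9 to 204 CPM in dosed animals and 125 to 177 CPM in controls. The 4 neutrophil markers were below the filter, at a summed 0 CPM in both groups, and red cell markers summed to 2.36 to 35.1 CPM in dosed animals and 3.92 to 12.3 CPM in controls. The part of these shifts in the results below was not tested, and in bulk tissue fewer cells of a type and less RNA per cell cannot be told apart.

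At 40 mg/mL for 14 d, Gstm1, Gstm4 and the less abundant of the 2 Gstm3 probes were higher than in undosed animals, 1.71-fold, 1.75-fold and 3.6-fold, and no alpha or pi probe passed the test, although both probes of Gsta3 and of Gstp1 did when libraries were scaled by total counts alone. Of the 14 probes 3 were called higher and 0 lower, beside 2.84% of all 17050 features higher and 3.68% lower, 6.52% in all (edgeR quasi-likelihood test, Benjamini-Hochberg adjustment at 0.05). With total counts as the only scaling 6129 features were higher and 293 lower, and the median log2 fold change of all features moved to 0.54. The 10 genes, each by its most abundant probe, had a median log2 fold change of 0.39, with 8 above 0, against a median of 0.06 over all features, 56.7% of them above 0. The 6 mu genes had a median of 0.43 and the 3 alpha genes one of 0.06.

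Gstm1, a main mu enzyme of mouse liver, ran from 401 to 2024 CPM with a median of 683 at 40 mg/mL, and from 398 to 573 CPM with a median of 465 in controls. Of the 8 dosed animals 5 lay above every control and 0 below, so the groups overlapped at their lower ends. The log2 fold change was 0.77 ± 0.21 (SE; adjusted p = 0.0126 by edgeR).

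Gstm4, its neighbour in the cluster, ran from 21 to 109 CPM with a median of 53.1 at 40 mg/mL and from 25.9 to 40.9 CPM with a median of 33.5 in controls. Here 6 dosed animals lay above every control and 1 below. The log2 fold change was 0.81 ± 0.21 (SE; adjusted p = 0.0101 by edgeR), and Gstm4 is the called member whose transcripts share no 50-base stretch with another gene.

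The 2 probes of Gstm3 gave different results. The abundant probe averaged 800 ± 458 CPM at 40 mg/mL and 557 ± 71.6 CPM in controls (SD, n = 8 and 9), a log2 fold change of 0.52 ± 0.23 that did not pass (SE; adjusted p = 0.179 by edgeR). By that probe 5 of 8 dosed animals lay above every control and 2 below. The scarce probe ran from 0.78 to 28.9 CPM with a median of 6.18 at 40 mg/mL and from 1.82 to 3.4 CPM with a median of 2.61 in controls, with 6 of 8 dosed animals above every control and 1 below, a log2 fold change of 1.85 ± 0.49 (SE; adjusted p = 0.0133 by edgeR). It had 9 to 429 counts per library at 40 mg/mL and 18 to 29 in controls, and a mean count 124 times below that of the abundant probe. With the probes of each gene summed, Gstm1 and Gstm4 were called and Gstm3, at a log2 fold change of 0.53, was not (adjusted p = 0.155 by edgeR).

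All 3 calls rested on 1 animal. At this dose replicate 8 had the highest level of Gstm1, of Gstm4 and of both Gstm3 probes, and also the highest of Gsta2, Gsta3, Gsta4 and Gstp1. Without it 0 member probes were called, with log2 fold changes of 0.43 for Gstm1 (adjusted p = 0.2), 0.62 for Gstm4 (adjusted p = 0.068) and 1.31 for the scarce Gstm3 probe (adjusted p = 0.107). Its library held 11384829 counts at a TMM factor of 1.3. With the TMM factor as a covariate the 3 calls were also lost, at 0.67 (adjusted p = 0.121), 0.70 (adjusted p = 0.0962) and 1.46 (adjusted p = 0.171). In that fit the abundant Gstm3 probe was called at 1.11 (adjusted p = 0.00271 by edgeR) together with the scarcer Gsta3 probe. The TMM factors of these dosed animals and their controls did not overlap, so the covariate fit cannot cleanly separate dose from the factor.

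**Figure D1:**
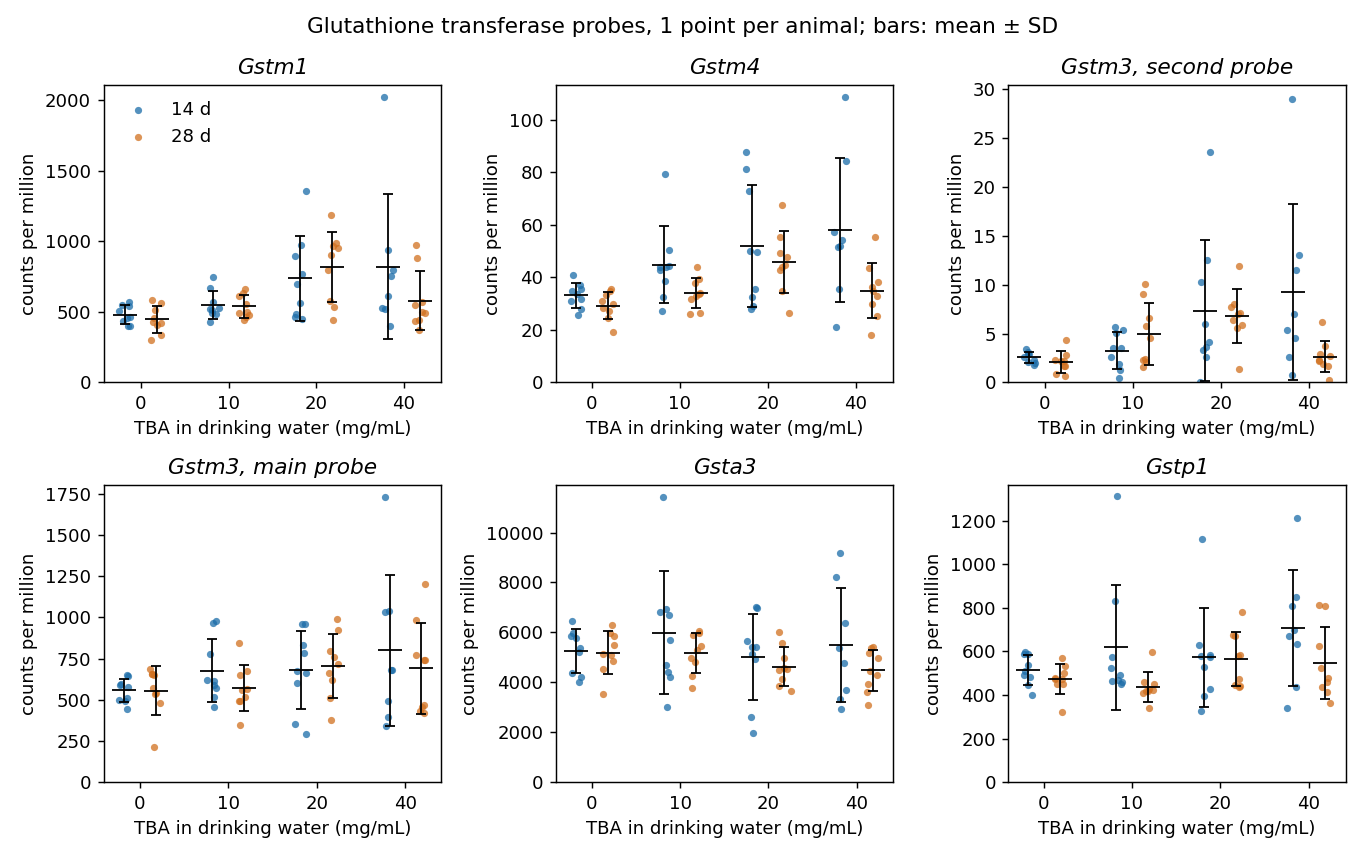
CPM of 6 probes in each animal, against the TBA concentration in drinking water (0, 10, 20, 40 mg/mL), at 14 d in blue and 28 d in orange; black bars are the mean and SD of a group, and the main and second Gstm3 probes are the abundant and the scarce one. Gstm1 and Gstm4 spread upward at 20 and 40 mg/mL, with 1 animal given 40 mg/mL for 14 d at 2024 CPM of Gstm1. Their dosed groups still overlap the controls, as do those of Gsta3. At 14 d Gsta3 widens to both sides, to 3018 to 11442 CPM at 10 mg/mL and 2950 to 9160 CPM at 40 mg/mL. Its controls lie at 4013 to 6474 CPM.

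The other mu genes did not pass at 40 mg/mL for 14 d. Gstm2, which shares 85.4% of aligned coding bases with Gstm3, averaged 147 ± 47.6 CPM against 116 ± 18.2 CPM in controls (SD, n = 8 and 9). Of its 8 dosed animals 4 lay above every control and 1 below. The abundant Gstm7 probe averaged 14 ± 4.36 CPM against 13.7 ± 2.44 CPM, and Gstm6 3.9 ± 1.36 CPM against 4.58 ± 1.92 CPM, both with 95% intervals of the log2 fold change that include 0 (-0.34 to 0.40 and -0.99 to 0.54). A second Gstm7 probe stayed under 3 CPM in this comparison, at 0 to 2.61 CPM in dosed animals and 0.285 to 1.53 CPM in controls, and 1 more, with a mean count of 1.197, was below the filter.

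Across the doses at 14 d, mean Gstm1 was 481 ± 64.9, 550 ± 98.2, 740 ± 301 and 822 ± 516 CPM at 0, 10, 20 and 40 mg/mL (SD, n = 9, 9, 9 and 8). The SD at 40 mg/mL rests largely on replicate 8, at 2024 CPM beside 401 to 937 CPM in the other animals. Mean Gstm4 was 33.2 ± 4.63, 44.8 ± 14.7, 51.8 ± 23.2 and 58.1 ± 27.4 CPM in the same order. The linear trend over doses, as log2 change per 10 mg/mL, was 0.20 ± 0.05 for Gstm1 (adjusted p = 0.00489 by edgeR), 0.19 ± 0.05 for Gstm4 (adjusted p = 0.00916 by edgeR) and 0.49 ± 0.11 for the scarce Gstm3 probe (adjusted p = 0.00356 by edgeR). These 3 were the only member probes called in the trend, all higher, beside 3.65% of all features higher and 4.34% lower, 7.99% in all. Without replicate 8 at 40 mg/mL the trend kept the scarce Gstm3 probe alone, and without replicate 2 it had 4 members.

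At 20 mg/mL for 14 d the same 3 probes had log2 fold changes of 0.62 ± 0.20 for Gstm1, 0.65 ± 0.20 for Gstm4 and 1.52 ± 0.48 for the scarce Gstm3 probe, but none passed the test across all features (adjusted p = 0.482 for each by edgeR). In that comparison 6 of 17050 features passed, 0.0352%, of which 0.0293% were higher and 0.00587% lower. Before adjustment 3 of 14 member probes and 1032 of 17050 features had p under 0.05, and DESeq2 and limma called 0 members. At 10 mg/mL 0 members and 0 features passed at either duration, 0% of those tested, with 2 of 14 member probes and 736 of 17050 features at 14 d, and 1 of 14 and 707 of 17050 at 28 d, under an unadjusted p of 0.05, and again DESeq2 and limma called 0 members.

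At 28 d the highest group means of Gstm1, Gstm4 and both Gstm3 probes were at 20 and not at 40 mg/mL. Mean Gstm1 was 447 ± 95.3, 540 ± 80.2, 818 ± 248 and 579 ± 209 CPM at 0, 10, 20 and 40 mg/mL (SD, n = 9 each). Gstm4 followed the same order, with means of 29.3 ± 5.2, 34 ± 5.77, 45.8 ± 11.7 and 34.9 ± 10.6 CPM. The scarce Gstm3 probe averaged 2.09 ± 1.09, 4.94 ± 3.14, 6.75 ± 2.75 and 2.65 ± 1.62 CPM. The 20 and 40 mg/mL groups were not tested against each other.

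Other members had their highest 28 d mean at 20 mg/mL as well, without passing the test there. Gsta2 averaged 11.5 ± 5.16, 11 ± 4.73, 19.7 ± 12.8 and 8.18 ± 7.88 CPM over the rising doses, and Gsta4 26.9 ± 7.1, 30 ± 6.26, 34.5 ± 9.74 and 27.7 ± 8.43 CPM (SD, n = 9 each). The abundant Gstm7 probe averaged 13.4 ± 2.8, 13.9 ± 3.12, 17.9 ± 6.16 and 11.7 ± 3.51 CPM, and at 20 mg/mL 6 of 9 animals lay above every control (adjusted p = 0.254 by edgeR). The second Gstm7 probe tested had another order, with means of 0.834, 1.11, 0.507 and 1.09 CPM, lowest at 20 mg/mL, and SDs of 0.405 CPM or more. Gstm2 had means of 94.4 ± 21.7, 108 ± 17.7, 110 ± 35 and 76.2 ± 15.6 CPM, the one at 40 mg/mL being the lowest of the 8 groups. Both Gstp1 probes were highest at 20 mg/mL too, the first with means of 472 ± 68.9, 438 ± 69.3, 565 ± 125 and 547 ± 166 CPM. The second had 68.9 ± 13.4, 66.9 ± 13.2, 88.3 ± 21.1 and 81.3 ± 33.6 CPM. Gstm6 and Gsta3 did not have their highest 28 d mean at 20 mg/mL. At 14 d Gsta2, Gsta4 and the abundant Gstm7 probe also had their highest means at 20 mg/mL, at 14.1, 30.3 and 17 CPM.

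At 20 mg/mL for 28 d, Gstm1 was the 1 member probe of 14 that passed, and 0 were lower, beside 0.0645% of all features higher and 0.0938% lower, 0.158% in all. It ran from 441 to 1186 CPM with a median of 907, against 304 to 584 CPM with a median of 432 in controls, and 6 of 9 dosed animals lay above every control. The log2 fold change was 0.87 ± 0.20 (SE; adjusted p = 0.0497 by edgeR), at the edge of the threshold. The call was lost when any 1 animal was left out other than control replicate 3 or dosed replicates 7 and 9. Without dosed replicate 7 all 3 of Gstm1, Gstm4 and the scarce Gstm3 probe passed. That fit called 348 features, against 27 in the full set. Without control replicate 3, whose TMM factor of 1.37 was the highest of these controls, 760 features were called. TMM factors ran from 0.907 to 1.48 in these dosed animals and from 0.792 to 1.37 in their controls, and with the TMM factor as a covariate 0 members were called. In the full set Gstm4 had a log2 fold change of 0.65 ± 0.20 (adjusted p = 0.122 by edgeR) with 7 of 9 animals above every control, and the scarce Gstm3 probe 1.68 ± 0.49 (adjusted p = 0.1 by edgeR) with 8 of 9. DESeq2 called all 3 of these probes and limma called Gstm1.

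At 40 mg/mL for 28 d no member passed, beside 1 feature of 17050, 0.00587%. The log2 fold change of Gstm1 was 0.37, with a 95% interval of -0.02 to 0.77, and that of Gstm4 0.26, with an interval of -0.15 to 0.66. No member probe and 1078 features had an unadjusted p under 0.05, and DESeq2 and limma called 0 members. The linear trend at 28 d called 0 members, beside 0.129% of all features, 0.0762% higher and 0.0528% lower. Under an unadjusted p of 0.05 there were 1 of 14 member probes and 1346 of 17050 features, and DESeq2 and limma called 0 members.

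The effect of 40 mg/mL itself was compared between durations. The 28 d effect minus the 14 d effect was -0.40 ± 0.29 on the log2 scale for Gstm1, -0.55 ± 0.29 for Gstm4 and -1.50 ± 0.70 for the scarce Gstm3 probe (SE; adjusted p = 0.93, 0.808 and 0.746 by edgeR). No member and no feature, 0%, passed this test, while 2 member probes and 1081 features had an unadjusted p under 0.05. DESeq2 called 22 features and 0 members, and limma 0. A difference between the durations is therefore not shown for any member.

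**Figure D2:**
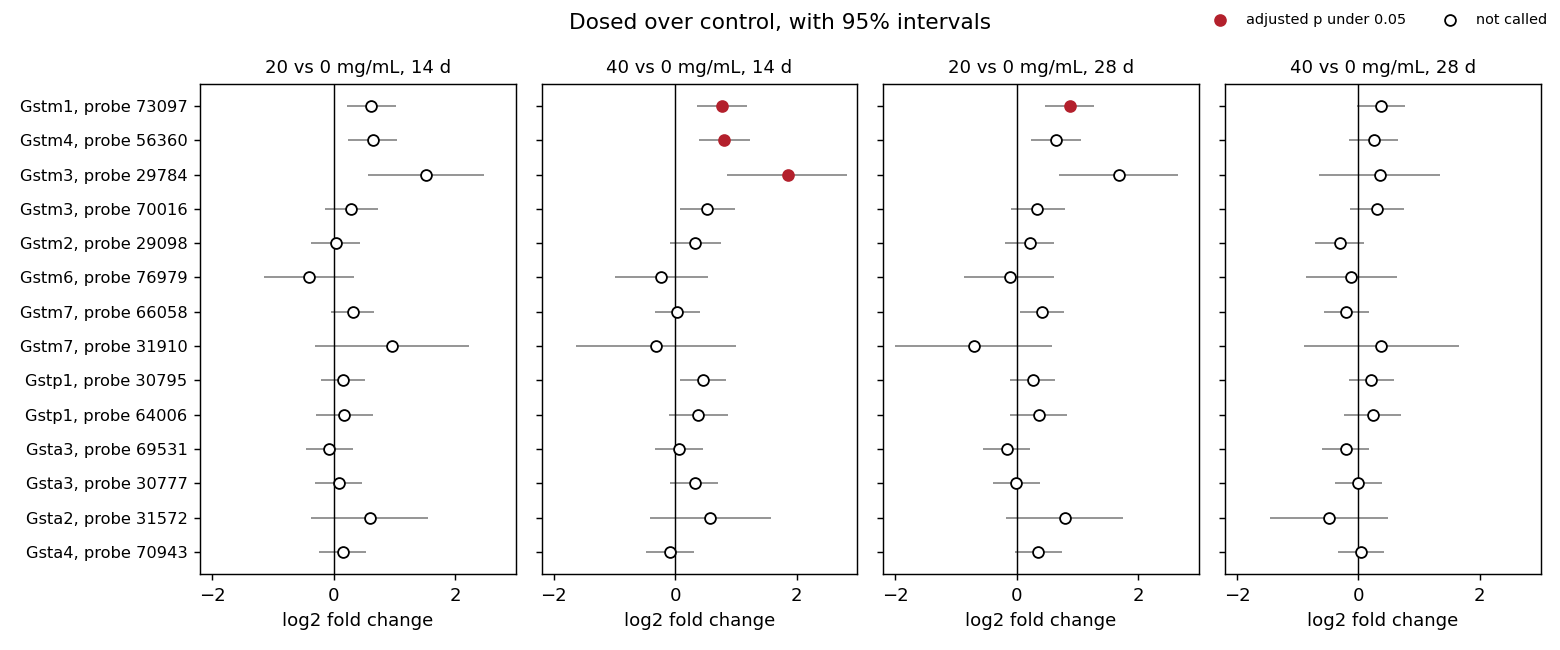
Log2 fold change of each of the 14 member probes tested, dosed over control, in 4 comparisons; lines are 95% intervals and red points passed at an adjusted p under 0.05 (edgeR). Red points appear for Gstm1, Gstm4 and the scarce Gstm3 probe at 40 mg/mL for 14 d and for Gstm1 at 20 mg/mL for 28 d, and for no alpha or pi probe under this scaling.

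The alpha genes were called in no comparison as fitted; at 40 mg/mL for 14 d both Gsta3 probes passed when libraries were scaled by total counts, and the scarcer one with the TMM covariate. Gsta3, read by the member probe of highest mean count and the enzyme that protects mouse liver from aflatoxin epoxide, had that probe at rank 12 of all probes. It ran from 2950 to 9160 CPM with a median of 5074 at 40 mg/mL for 14 d, and from 4013 to 6474 CPM with a median of 5392 in controls. The dosed animals spread to both sides, 2 above and 3 below every control, and the log2 fold change was 0.06 with a 95% interval of -0.33 to 0.46 (adjusted p = 0.915 by edgeR). At 28 d its means were 5194 ± 846, 5167 ± 793, 4633 ± 774 and 4484 ± 816 CPM at 0, 10, 20 and 40 mg/mL (SD, n = 9 each), and the log2 fold change at 40 mg/mL was -0.21 with an interval of -0.60 to 0.17. A second Gsta3 probe, 21.5 times lower in mean count, gave 0.32 (-0.08 to 0.71) at 14 d and 0.00 (-0.39 to 0.39) at 28 d.

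Gsta4, an enzyme that conjugates aldehydes from lipid peroxidation, averaged 25.8 ± 12.9 CPM at 40 mg/mL for 14 d and 27.4 ± 5.19 CPM in controls (SD, n = 8 and 9). Its log2 fold change was -0.08 with a 95% interval of -0.48 to 0.31, which turned to 0.37 with total counts. Gsta2, an alpha enzyme inducible by antioxidants in rodent liver, had a coefficient of variation of 142% at 40 mg/mL for 14 d, the widest of the 14 probes in that group. There it ran from 1.6 to 60.7 CPM with a median of 5.3, against 5.66 to 16.5 CPM with a median of 8.71 in controls, so that 1 animal lay above every control and 4 below. Its mean was higher and its median lower than in controls, and the log2 fold change of 0.58 (adjusted p = 0.592 by edgeR) was -0.38 without replicate 8. Of Gsta2 transcripts 47.4% of 50-base stretches occur in another gene, and its second probe, with a mean count of 2.887, was below the filter.

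Gstp1, the pi enzyme, ran from 339 to 1213 CPM with a median of 685 at 40 mg/mL for 14 d, and from 401 to 597 CPM with a median of 510 in controls. Of 8 dosed animals 6 lay above every control and 1 below, and the log2 fold change was 0.46 with a 95% interval of 0.08 to 0.83 that did not pass across all features (adjusted p = 0.151 by edgeR). Its second probe gave 0.38 (-0.10 to 0.87). At 28 d the first probe averaged 547 ± 166 CPM at 40 mg/mL and 472 ± 68.9 CPM in controls (SD, n = 9 each), a log2 fold change of 0.21.

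Levels cannot be ranked between genes, since probes of 1 gene differed 21.5-fold for Gsta3 and 124-fold for Gstm3. As shares of the 16 probes' own counts, the mu class held 16.7%, 16.9%, 21.4% and 21.7% over the rising doses at 14 d, and 15.9%, 17.8%, 23.3% and 20.4% at 28 d. The alpha class held 75.1%, 73.4%, 68.6% and 68.5%, and 76.4%, 75.2%, 67.6% and 70.3%, in the same order. Gstp1 held 8.23%, 9.63%, 10.1% and 9.79%, and 7.63%, 7.05%, 9.12% and 9.29%. These shares are group means and were not tested. Most of the alpha counts are those of the abundant Gsta3 probe, with a mean count of 51677.

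To compare a mu with an alpha gene without any scaling between libraries, Gstm1 counts were set against Gsta3 counts of the same animal, a comparison chosen after the values had been seen. Gstm1 stood at 9.31 ± 1.49, 10.4 ± 4.87, 16 ± 6.92 and 15.3 ± 5.92 counts per 100 Gsta3 counts over the rising doses at 14 d (SD, n = 9, 9, 9 and 8). At 28 d it stood at 8.57 ± 0.764, 10.6 ± 2.05, 18.1 ± 6.61 and 13 ± 3.87 (SD, n = 9 each). At 20 mg/mL for 28 d 8 of 9 animals lay above every control.

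On the log2 scale the ratio was higher by 0.63 at 40 mg/mL and by 0.69 at 20 mg/mL for 14 d (exact permutation test, two-sided, adjusted p = 0.0189 for each over 12 tests). For 28 d it was higher by 0.55 at 40 mg/mL, 1.00 at 20 mg/mL and 0.29 at 10 mg/mL (exact permutation, adjusted p = 0.0189, 0.00197 and 0.0225), while at 10 mg/mL for 14 d it differed by 0.07 (exact permutation, adjusted p = 0.817). At 40 and 20 mg/mL for both durations, leaving out each animal in turn kept the unadjusted exact p at or below 0.0177. The choice of Gsta3 probe mattered at 40 mg/mL: with the scarcer one the difference was 0.37 at 14 d (exact permutation p = 0.0932, unadjusted) and 0.34 at 28 d (exact permutation p = 0.0673, unadjusted). At 20 mg/mL it was 0.55 at 14 d and 0.87 at 28 d with that probe (exact permutation p = 0.033 and 4.11e-04, unadjusted). A ratio shows unequal change of the 2 genes and not which of them changed.

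Gstp1 relative to Gsta3 was higher by 0.40 on the log2 scale at 40 mg/mL for 14 d, with 4 of 8 animals above every control (exact permutation, adjusted p = 0.0189). At 28 d it was higher by 0.39 at 40 mg/mL and 0.41 at 20 mg/mL (exact permutation, adjusted p = 0.0251 and 0.0284). At 10 mg/mL it was 0.07 for 14 d and -0.10 for 28 d (exact permutation, adjusted p = 0.863 and 0.4). At 20 mg/mL for 14 d it was 0.23 (exact permutation, adjusted p = 0.767). There 1 animal had 56.7 Gstp1 counts per 100 Gsta3 counts, beside a group median of 9.71, with Gstp1 the highest and Gsta3 the lowest of its group. Replicate 2 at 10 mg/mL for 14 d showed the same pairing, at 43.6 per 100. These Gstp1 ratios used the abundant Gsta3 probe alone and were not tested with the scarcer one. At 40 mg/mL for 14 d the scarcer probe had a log2 fold change of 0.32 and the abundant one 0.06, beside 0.46 for Gstp1. A rise of Gstp1 relative to Gsta3 is therefore shown for 1 Gsta3 probe only.

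**Figure D3:**
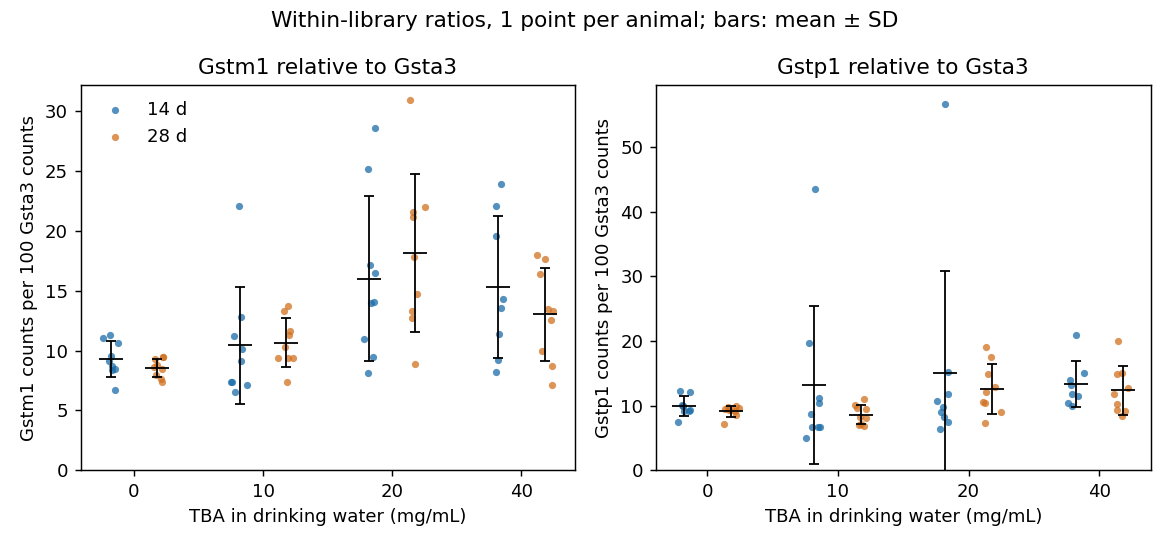
Gstm1 (left) and Gstp1 (right) counts per 100 Gsta3 counts in the same library, 1 point per animal, against the TBA concentration (mg/mL), at 14 d in blue and 28 d in orange; black bars are the mean and SD, with 1 lower bar ending at the axis. The Gstm1 ratio stays at or under 11.3 in every control and reaches 28.6 to 30.9 at 20 mg/mL, and 2 animals at 14 d, at 43.6 and 56.7, stand far above the rest in the Gstp1 ratio.

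Within groups, the probes that varied together were not always of the same class. After group means were removed, log2 CPM over 71 libraries correlated between the 2 probes of Gsta3 (Pearson r = 0.94) and of Gstp1 (0.82), but weakly between those of Gstm3 (0.34) and of Gstm7 (0.05). The scarce Gstm3 probe had r = 0.66 with Gstm1, 0.62 with Gstm4 and 0.61 with Gstm6. The abundant one had its highest values with the 2 Gsta3 probes (0.79 and 0.75) and Gsta2 (0.66), and also 0.62 with Gstm1 and 0.57 with Gstm2. Gstm1 and Gstm4 had r = 0.74, and 0.69 without the 2 libraries farthest from the median. Gstp1 had r = 0.59 with Gstm1 and 0.05 with Gsta3. These are descriptions, and the probes of an animal share its 1 library, with the same depth and scaling factor. The abundant Gstm3 probe and Gsta3 also ran against the log2 TMM factor (r = -0.60 and -0.51), while Gstm1 (0.07) and Gstm4 (0.12) had r near 0 with it.

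**Figure D4:**
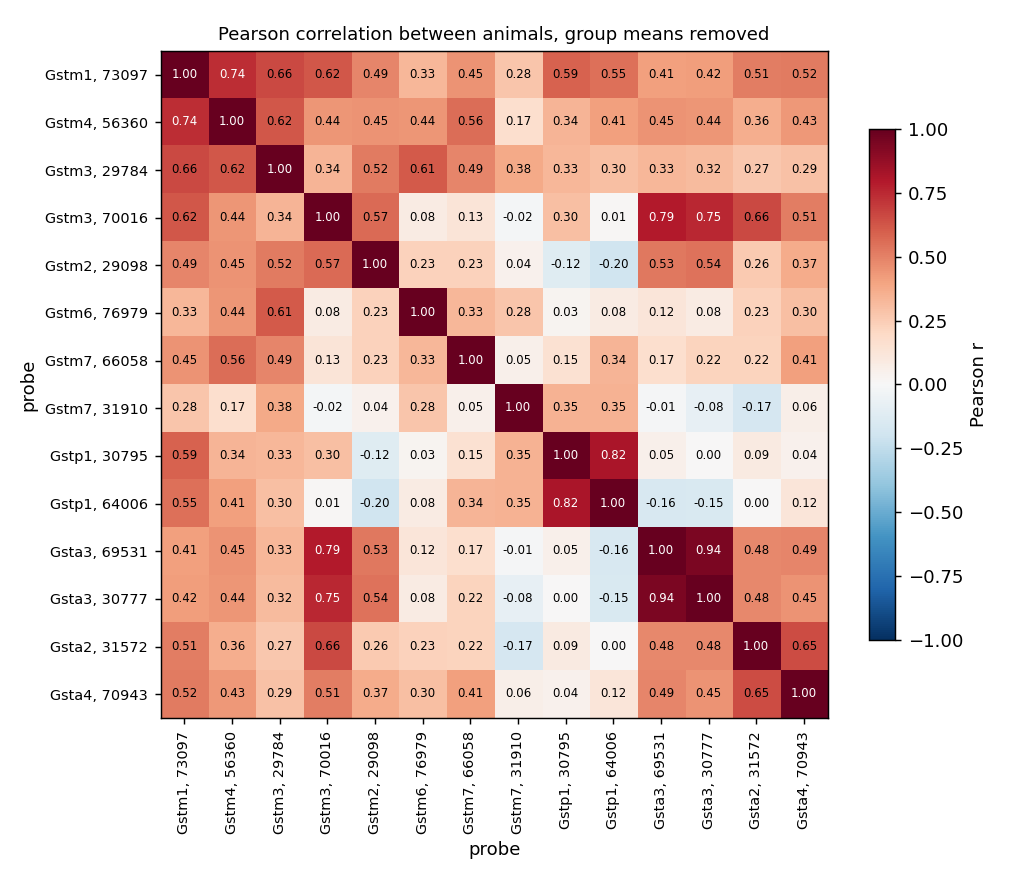
Pearson correlations of log2 CPM between the 14 member probes over 71 animals after group means were removed; each cell gives r, from -1 (blue) to 1 (red). The abundant Gstm3 probe is close to Gsta3 (0.79), while Gstm1, Gstm4 and the scarce Gstm3 probe form a block with r of 0.62 to 0.74.

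Among 11774 other genes, those most like Gsta3 across the libraries included Idh1, a cytosolic dehydrogenase that makes NADPH, and Adh1, an alcohol dehydrogenase (r = 0.82 and 0.77). Those most like the abundant Gstm3 probe were Cyp2c55, a cytochrome P450, Cyb5r3, a reductase, and Qdpr, which regenerates a pterin cofactor (r = 0.68, 0.68 and 0.67). Those most like Gstp1 were Gstp2, Cbr1 and Gm3839 (r = 0.68, 0.63 and 0.61). Of the genes named here Cbr1, a carbonyl reductase, was called at 40 mg/mL for 14 d.

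The rest of the glutathione pathway was read at 40 mg/mL for 14 d from lists, beside the same 2.84% of features higher and 3.68% lower. Calls of list genes, here and in the next paragraph, and of cell type markers came from the TMM fit alone. Unlike those of the members, they were not checked under other scalings or with animals left out. Of 11 transferases of other classes 0 were higher and 2 lower, the microsomal enzyme Mgst1 at 1980 ± 726 CPM against 3156 ± 227 CPM in controls and the peroxisomal and mitochondrial Gstk1 at 227 ± 80.9 CPM against 407 ± 60 CPM (SD, n = 8 and 9; adjusted p = 0.0124 and 0.0113 by edgeR). Of 3 further alpha, mu and pi genes, Gsta1, Gstm5 and Gstp2, none was called. Of 11 genes of glutathione synthesis and cysteine supply 2 were lower, Cbs by a log2 change of -0.72 and Gss by -0.53, the enzymes of cystathionine and of glutathione formation. Of 9 genes of glutathione recycling and peroxide removal Gpx4 (0.52) and G6pdx (2.01) were higher and Gpx1 (-0.64) was lower, and Gpx4 was above every control in 8 of 8 animals. Of 12 genes of the mercapturate pathway and conjugate export the pump Abcc4 alone was called, at 2.57.

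The next lists were read in the same comparison, where 2.84% of all features were higher and 3.68% lower, 6.52% in all. Of 17 NRF2 regulators and other targets 1 was called, Cbr1 at a log2 fold change of 0.64, a share near that of all features. The list's median was 0.21 against 0.06 for all features. Of 17 genes of CAR, PXR and their other targets 2 were called, Cyp2b10, the classical CAR target, at 4.09 and Gadd45b at 1.88. Cyp2b10 averaged 1080 ± 2206 CPM against 63.2 ± 25 CPM in controls, with 4 of 8 animals above every control and 1 below. Of 12 pericentral genes 4 were lower, among them Cyp2e1 (-1.28), Cyp1a2 (-1.44) and Oat (-0.87), and of 13 periportal genes 5 were lower, among them Cyp2f2 (-1.41), Cdh1 (-1.16) and Pigr (-1.31). Of 10 male-biased liver genes 6 were lower, among them Cyp7b1 (-1.68), Serpina1e (-1.08) and Mup20 (-1.56). At 40 mg/mL for 28 d none of the genes on these lists passed the test, beside 1 feature of 17050, 0.00587%.

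In undosed animals the members did not differ detectably between durations: at 28 d against 14 d 0 of 14 probes and 0 of 17050 features, 0%, were called, with 0 member probes and 516 features under an unadjusted p of 0.05, and DESeq2 and limma called 0 members. Gstm1 averaged 447 ± 95.3 CPM at 28 d and 481 ± 64.9 CPM at 14 d, and Gsta3 5194 ± 846 CPM at 28 d and 5255 ± 871 CPM at 14 d (SD, n = 9 each). The 95% interval of the log2 difference was -0.51 to 0.29 for Gstm1 and -0.40 to 0.37 for Gsta3.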

How the data were processed

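The authors deposited 1 table of raw counts per probe for 72 liver libraries, neither scaled nor logged. The submitters' processing notes name bcl2fastq 2.20 and Bowtie without a version. The genome build and counting tool are not given in the sources used here. Sample groups came from the dose and duration labels, and replicate numbers follow the sample order. The labels give no batch or pairing.

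Each probe was tested as a feature of its own. Libraries under 1e+05 counts were left out (1 of 72), and filterByExpr over the 8 groups left 17050 features. The test was that of edgeR 4.0.16 under R 4.3.3 (TMM scaling, robust quasi-likelihood, 1 mean per group over 71 libraries, Benjamini-Hochberg at 0.05 per comparison, 10 comparisons). The common biological coefficient of variation was 0.402, a spread between animals beyond counting error. Standard errors were taken from the fold change and its F statistic. Log2 CPM used a prior count of 2. Libraries of a group were compared pairwise by a chi-square of their counts, at least 6.62 times its degrees of freedom, and 0 pairs were identical. DESeq2 1.42.0, limma 3.58.1, other scalings and filters, a TMM covariate and left-out animals were alternatives. The scripts were tested on simulated data. Within-library ratios, with 0.5 added to each count, were compared by exact permutation. Open reading frames were aligned with Biopython 1.88.

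The members, gene lists and marker lists were chosen with earlier results of these data known. All member probes are described, with the probe of highest mean count standing for its gene. Of each list the text counts the genes that passed and names up to 3 with the smallest p. The 3 genes most like the member of highest mean count in each class were taken by Pearson correlation, and 1 of these genes is not reported here. Mus musculus promoter windows were matched by symbol and are credited to RefSeq, GRCm38.p6; all 10 members were found in its gene table.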

Additional observations from a re-analysis of the deposited data

Results flagged for a closer look

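Over the 11 member probes and 8 groups examined, 9 of 88 sets of animals held a value whose gap to its neighbour was large for the group's range on the log2 scale; chance alone marks about 1 in 20. All 9 were low values. Replicate 3 of the undosed animals at 28 d was low in both the abundant Gstm3 probe (214 CPM, others 483 to 685) and Gstp1 (321 CPM, others 450 to 571). Replicate 4 at 20 mg/mL for 14 d had 0 CPM of the scarce Gstm3 probe (others 2.56 to 23.6) and 0 CPM of Gstm6 (others 1.14 to 8.1), each a count of 0 in 1 library. The scarce Gstm3 probe was also low in replicate 7 at 20 mg/mL for 28 d (1.34 CPM, others 5.52 to 11.9) and in replicate 5 at 40 mg/mL for 28 d (0.285 CPM, others 1.66 to 6.16). Gstm2 was low in replicate 2 at 40 mg/mL for 14 d (61.3 CPM, others 118 to 211), Gstm6 in replicate 3 at 40 mg/mL for 28 d (0.442 CPM, others 1.85 to 5.36) and Gsta2 in replicate 6 at 10 mg/mL for 28 d (2.03 CPM, others 7.32 to 17.2).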

How the results depend on the processing

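No member probe was called under any alternative tried, left-out animals included, at 10 mg/mL, at 20 mg/mL for 14 d, at 40 mg/mL for 28 d, in the 28 d trend, in the difference between durations or between the controls. At 40 mg/mL for 14 d the 3 calls became 9 when libraries were scaled by total counts, which moved the median log2 fold change of all features to 0.54; Gstm1 stood at 1.25 and Gstm4 at 1.27 on that scale. It became 1 with limma (Gstm4), 1 with the failed library kept (the scarce Gstm3 probe) and 0 to 3 over left-out animals. With these groups alone Gstm1 missed the threshold (adjusted p = 0.0603), and without the 2 libraries of highest TMM factor the scarce Gstm3 probe did (adjusted p = 0.0516). The 14 d trend had 10 calls with total counts, 1 with limma (Gstm4), 1 with the TMM covariate (the abundant Gstm3 probe), 1 with the failed library kept, and 1 to 4 over left-out animals. At 20 mg/mL for 28 d the 1 call became 0 with the size factors of DESeq2, no filter, the TMM covariate or the failed library kept, 3 with total counts, DESeq2 or the groups alone, and 0 to 3 over left-out animals. Over all features, and over the settings other than left-out animals, the count at 40 mg/mL for 14 d was 273 to 6422 (1111 as reported). It was 232 to 7295 in the 14 d trend (1362) and 0 to 515 at 20 mg/mL for 28 d (27). Over left-out animals these counts ran from 584 to 1496, from 699 to 1833 and from 0 to 760.

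Of 227 refitted log2 fold changes at 40 mg/mL, 200 kept direction and side of the threshold, and the cause of the others was not tested. Signs turned for uncalled members: at 14 d Gsta4 to 0.37 and Gstm6 to 0.30 with total counts, Gsta2 to -0.02, Gsta3 to 0.00 and Gstm7 to -0.02 with limma, Gsta4 to 0.08 and Gstm7 to -0.13 with the covariate, Gsta3 to -0.12 and Gstm7 to -0.09 with the failed library, Gsta4 to 0.09 and Gstm7 to -0.04 without 2 libraries. At 28 d Gstm6 turned to 0.10 with total counts and Gsta4 to -0.06 with limma. Over left-out animals at 14 d Gsta2 ran from -0.38 to 0.74, Gsta3 from -0.08 to 0.15, Gsta4 from -0.34 to 0.02 and Gstm7 from -0.11 to 0.10, and at 28 d Gsta4 from -0.07 to 0.11 and Gstm6 from -0.22 to 0.02. No paired analysis was possible because replicate numbers follow the sample order only. Probes with few counts, such as the scarce Gstm3 probe, are the most limited by depth.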
